A study of Mus musculus with 2 samples.

Results

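PACAP, the neuropeptide encoded by Adcyap1, its receptor and 8 genes that break down, sense or transmit cyclic AMP were compared in mouse ovaries with and without ulipristal acetate during the ovulatory response. The genes were Adcyap1, Adcyap1r1, Pde4b, Pde4d, Pde8a, Pde10a, Crem, Prkar2b, Prkar1a and Creb1. They were taken as listed, and every probe set whose platform annotation names 1 of them alone was used. This gave 36 of the 34945 single-gene probe sets, for 10 of 18193 named genes. Both groups were wild type CD-1 mice, 24 to 28 days old, given 5 IU of PMSG (pregnant mare serum gonadotropin, which grows preovulatory follicles) and 48 h later 5 IU of hCG (human chorionic gonadotropin, which acts on the luteinizing hormone receptor). Oil vehicle or, in the other group, ulipristal acetate (also labelled UPA and CDB), a ligand that modulates the progesterone receptor, was given 2 h after hCG. Ovaries were collected at 11 h, and the labels do not say from which injection. RNA of whole ovaries was hybridised to 1 Affymetrix array per treatment, and the labels do not give the number of mice behind each. With 1 array per treatment there is no replicate error, so no test, standard deviation or p-value is given, and each difference is between these 2 samples.

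PACAP acts through receptors coupled to the stimulatory G protein. These receptors switch on adenylyl cyclase, which makes cyclic AMP. Cyclic AMP releases the catalytic subunits of protein kinase A from their regulatory subunits, and the kinase phosphorylates the transcription factor CREB at genes that carry a cyclic AMP response element (CRE). Phosphodiesterases end the signal by breaking cyclic AMP down, and some of them are themselves transcribed in answer to it. In the preovulatory follicle the luteinizing hormone receptor uses the same cascade, and granulosa cells make PACAP after the hormone surge, in rodents in a manner that depends on the progesterone receptor.

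Promoter letters are shown for the members that differed most, with 2 contrasting members, because CREB binds the sequence TGACGTCA or its shorter core TGACG. RefSeq promoter windows (build GRCm38.p6, 250 bases before to 50 after a start) matched 9 of the 10 genes, with 20 windows. The gene without a window was Crem. The first 2 lines below give the 250 bases before the first listed start of Adcyap1 (chr17:93198767-93199016, plus strand) and Pde4b (chr4:102421305-102421554, plus strand). Capitals mark TGACG or its reverse complement CGTCA, and the hexamer AGAACA, or TGTTCT on the other strand, to which steroid receptors of the progesterone receptor class bind. The last 2 lines give 30 bases each of Prkar1a (chr11:109650889-109650918, plus strand), with the full TGACGTCA in capitals, and of Pde8a (chr7:81213169-81213198, plus strand), with TGACG in capitals.
Adcyap1: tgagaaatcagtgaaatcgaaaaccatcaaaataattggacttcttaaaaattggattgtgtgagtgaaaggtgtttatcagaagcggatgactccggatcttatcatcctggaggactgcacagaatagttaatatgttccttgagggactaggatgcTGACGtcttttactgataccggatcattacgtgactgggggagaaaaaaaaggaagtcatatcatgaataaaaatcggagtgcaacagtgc
Pde4b: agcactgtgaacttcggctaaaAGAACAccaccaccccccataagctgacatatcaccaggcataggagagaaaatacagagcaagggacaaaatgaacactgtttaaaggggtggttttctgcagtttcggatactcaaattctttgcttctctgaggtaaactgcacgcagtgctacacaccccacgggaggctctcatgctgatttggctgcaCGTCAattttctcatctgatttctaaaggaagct
Prkar1a: gcgaggcgcatTGACGTCAgcagccgaacg
Pde8a: gctgctttgcatTGACGccagcagccgctg
The core began 91 bases before the start in Adcyap1, 34 in Pde4b and 84 in Pde8a, and the full element 49 bases before 1 of the starts of Prkar1a. The Pde4b stretch also held AGAACA, 228 bases before the start. On either strand the core was present in 7 of the 20 member windows and in 20.8% of all 32851 windows, overlaps with the full element included. These windows were not limited to measured genes, and overlapping windows of a gene can count 1 site more than once, as in Adcyap1. By gene the core was present in 4 of the 9 members with a window and in 35.9% of the 9196 measured genes with one. The full element, which reads the same on each strand, was present in 2 member windows and in 1.79% of all windows, or in 1 of 9 members and 3.58% of genes. Both member windows were of Prkar1a, and they overlap and share 1 site. The hexamer was present in 3 member windows and 18.97% of all windows, or in 2 of 9 members (Pde4b and Prkar1a) and 14.4% of genes. These matches describe letters only. As the signals below show, the core stood before members that were lower after ulipristal (Adcyap1, Pde4b) and before members that differed little (Pde8a, Prkar1a). It was not in the windows of Pde4d and Pde10a, which were also lower, nor in those of Adcyap1r1, Prkar2b and Creb1. Crem, which was lower too, had no window to read.

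Signals are MAS5 intensities in arbitrary units, scaled by the authors' processing to a trimmed mean of 150.001 on both arrays. A ratio is log2 of the ulipristal signal minus log2 of the vehicle signal, with signals under 7.17 (the 25th percentile) raised to that floor. A probe set counted as measured at a mean signal of 30.8 or more, the median of all probe sets, and the brightest probe set stood for its gene. All 10 genes and 20 of their 36 probe sets were measured, against 11364 genes and 19467 probe sets in all. The other 16 probe sets were too dim, 5 of them under the floor on both arrays. Across the 4955 genes with more than 1 measured probe set, the ratios of the 2 brightest differed by a median of 0.29 and by 0.77 at the 90th percentile, which is a measure of disagreement within these arrays and not of variation between animals. The 3' to 5' signal ratio of the Gapdh control, a measure of RNA length, was 1.20 on the vehicle and 0.87 on the ulipristal array, and that of Actb was 2.40 and 1.87. The 27 poly-A spike features had a median log2 ratio of -0.57. The part of these in the results was not tested.

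Adcyap1 and the phosphodiesterase genes Pde4b and Pde4d had lower signals after ulipristal, whereas the PACAP receptor, CREB and the regulatory subunits of protein kinase A differed little. Among the 10 genes, Adcyap1 and Pde4b (2 genes) were lower by 2-fold or more, 0 were higher by as much and 8 lay within 2-fold. The share of all measured genes was 1.56% for 2-fold or more lower and 3.34% for 2-fold or more higher. Ratios were below 0 for 8 of the 10 genes and for 40.0% of all measured genes, with medians of -0.41 and 0.091. The 10 genes were chosen with earlier results of these data known, so this comparison gives no independent support. In whole ovaries, fewer cells of a type and less RNA per cell cannot be told apart.

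**Figure D1:**
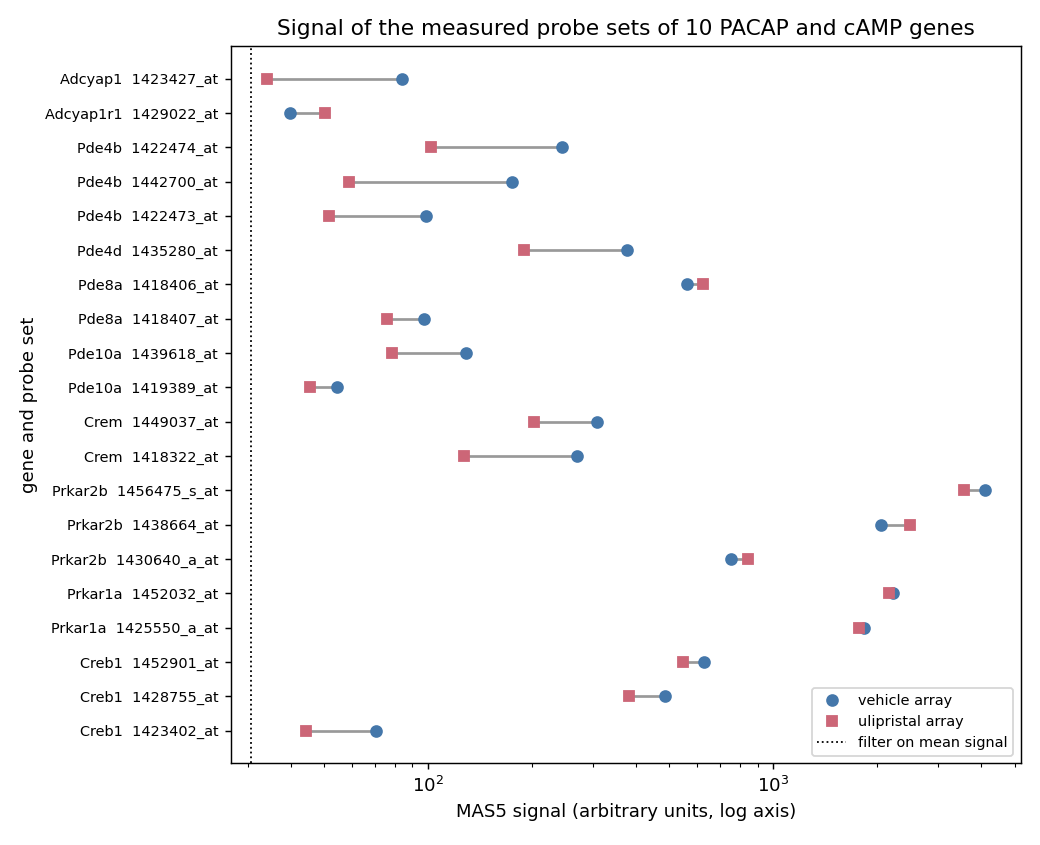
MAS5 signal (arbitrary units, log axis) of the 20 measured probe sets of the 10 genes on the vehicle array (circles) and the ulipristal array (squares), with a dotted line at the filter of 30.8. The squares lie left of the circles for 16 probe sets and right for 4, and the widest gaps belong to Adcyap1 and Pde4b.

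Adcyap1, which encodes the ligand PACAP, read 83.9 with vehicle and 34.1 with ulipristal on its brightest probe set (1423427_at). This was 2.46-fold lower, a log2 ratio of -1.30 and rank 95 from the lowest among 11364 measured genes. The second probe set (1441778_at) went the same way, with signals of 42.3 and 14.4 and a log2 ratio of -1.56, but its mean was under the filter. Both probe sets were thus dim, and the ulipristal signal of the brighter one lay close to the filter. At a mean signal under 100, 1.98% of measured genes were lower by 2-fold or more and 9.51% higher by as much, so genes of this brightness that passed 2-fold were more often higher than lower. When a pseudocount of 50 replaced the floor, the log2 ratio of Adcyap1 was -0.67, short of 2-fold. Every alternative that gave a value kept it below 0.

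Adcyap1r1, the receptor that prefers PACAP over the related peptide VIP, read 39.8 with vehicle and 50.1 with ulipristal. The log2 ratio was 0.33, or 1.26-fold higher, on this 1 measured probe set, which was dim. That is close to the median of 0.29 by which 2 probe sets of a gene differed. With the pseudocount of 50 it was 0.16. The sign was opposite to that of its ligand, but a ratio of this size gives the receptor no firm direction. Its other probe sets were too dim to be measured. Of these, 1450799_at read 1.92 and 25.5, and 1439042_at read 7.88 and 4.56. Their ratios of 1.83 and -0.14 rest on signals at or near the floor and give the receptor no direction. The closest relatives of ligand and receptor gave no measurement: all 11 genes of secretin family peptides and receptors, among them Vip, Vipr1 and Vipr2, were under the filter on low signal.

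The phosphodiesterases had unlike ratios. Pde4b, a cyclic AMP-specific enzyme, read 245 with vehicle and 102 with ulipristal on 1422474_at, 175 and 58.9 on 1442700_at, and 98.3 and 51.5 on 1422473_at. All 3 measured probe sets were lower after ulipristal, with log2 ratios of -1.27, -1.57 and -0.93. The brightest gave 2.41-fold and rank 100 of 11364. At a mean signal of 100 or more, as for Pde4b, 1.41% of measured genes were lower by 2-fold or more and 1.26% higher by as much. Its other 3 probe sets were under the floor on both arrays. With the pseudocount its log2 ratio was -0.96, just short of 2-fold.

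Pde4d, a second member of the PDE4 family, read 377 with vehicle and 190 with ulipristal on its single measured probe set. At 1.99-fold lower (log2 ratio -0.99, rank 179) it lay just inside the 2-fold limit. It passed the limit under the 3 alternatives that rescale the arrays, with -1.05 after median centring, -1.06 after quantile normalization and -1.07 after lowess centring. The other Pde4d probe set read 5.18 and 5.22, under the floor. Of the other PDE4 genes, Pde4a was too dim to be measured (16.6 and 20.4) and Pde4c had no single-gene probe set.

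Pde10a, which breaks down cyclic AMP and cyclic GMP, read 128 and 78.7 on its brightest probe set, 1.63-fold lower. A second measured probe set read 54.5 and 45.5, with a log2 ratio of -0.26 against -0.71 for the brightest. The 3 dim probe sets disagreed: 1458499_at read 17.1 and 33.9, 1432490_a_at 16.2 and 14.0, and 1419390_at 18.6 and 0.78. On the measured probe sets Pde10a was lower but short of 2-fold, and of the dim ones 1 was higher and 2 were lower. Pde8a, a cyclic AMP enzyme with high affinity, read 563 with vehicle and 624 with ulipristal on 1418406_at but 97.1 and 75.8 on 1418407_at. The log2 ratios of 0.15 and -0.36 differ in sign, and their median over probe sets was -0.10.

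**Figure D2:**
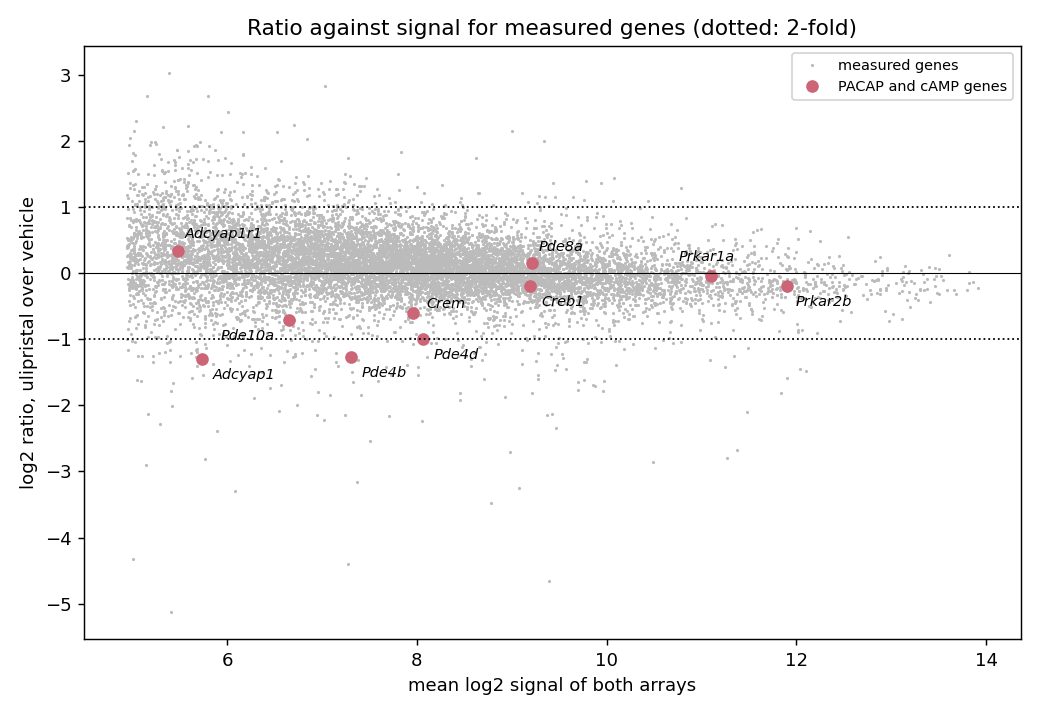
Log2 ratio of ulipristal over vehicle against the mean log2 signal of both arrays for 11364 measured genes (grey) and the 10 PACAP and cyclic AMP genes (red), with dotted lines at 2-fold. Adcyap1 at -1.30 and Pde4b at -1.27 lie beyond the lower line, Pde4d at -0.99 lies just above it, and Prkar1a at -0.042 lies near 0.

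Protein kinase A regulatory subunits had high signals on both arrays and small ratios. Prkar1a, the type I alpha subunit, read 2225 and 2161 on 1452032_at and 1827 and 1766 on 1425550_a_at. Its log2 ratios of -0.042 and -0.049 were nearly equal, and that of the brighter probe set turned to 0.085 after quantile normalization and 0.059 after lowess centring. Prkar2b, the type II beta subunit that follicle-stimulating hormone is known to induce in granulosa cells, gave probe sets that differ in sign. The brightest, 1456475_s_at, which can bind several transcripts, read 4092 and 3559, a log2 ratio of -0.20. The others read 2055 and 2488 (0.28) and 753 and 845 (0.17). No direction can be given for Prkar2b.

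Among the transcription factors, Crem had lower signals on both measured probe sets and Creb1 differed little on its brightest ones. Crem encodes activators and, from an internal promoter, the short repressor ICER, which cyclic AMP induces. It read 309 with vehicle and 202 with ulipristal on 1449037_at, 1.53-fold lower, and 270 and 127 on 1418322_at. The log2 ratios were -0.61 and -1.09, so only the second probe set was past 2-fold, and the gene was counted by the first. The dim Crem probe sets read 12.01 and 8.43, and 7.55 and 8.61. The sources used here do not say which of the Crem products each probe set reports. Creb1, which encodes CREB, read 628 and 549 on 1452901_at, 486 and 383 on 1428755_at, and 70.7 and 44.3 on 1423402_at. The log2 ratios were -0.19, -0.34 and -0.68, all below 0, with the lowest on the dimmest of the 3. Of the 3 dim Creb1 probe sets, 1452529_a_at read 18.9 and 14.4, and the others were at or near the floor.

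Counted by probe set, 4 of the 20 measured were at least 2-fold lower: 1 of Adcyap1, 2 of Pde4b and 1 of Crem. None was at least 2-fold higher among these 20. The shares of all measured single-gene probe sets were 2.02% for 2-fold or more lower and 3.2% for 2-fold or more higher. Of the 20 probe sets, 16 had ratios below 0 and 4 above. The ratios of the 2 brightest measured probe sets differed by 0.0070 for Prkar1a, 0.15 for Creb1, 0.30 for Pde4b and up to 0.51 for Pde8a, the highest of the 7 members with more than 1, against the 90th percentile of 0.77 over all genes. Probe sets of 1 gene share its transcripts and are not replicates.

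The remaining genes of the cascade were described from lists chosen with earlier results of these data known. The 8 lists of receptors, G proteins, enzymes and anchoring proteins held 92 genes, of which 83 had a single-gene probe set and 52 were measured. No gene of these 52 was lower by 2-fold or more (0 genes), and 2 were higher by as much. The shares of all measured genes were 1.56% lower and 3.34% higher. After median centring, quantile normalization or lowess centring 1 of the 52, Sik1, was lower by 2-fold or more. The shares of all measured genes at least 2-fold lower were then 1.80%, 1.75% and 1.79%. Ratios were below 0 for 24 and above for 28, with a median of 0.058 against 0.091 over all measured genes.

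Receptors coupled to the stimulatory G protein held the 2 higher genes. Fshr, the receptor of follicle-stimulating hormone, read 51.1 and 116, 2.26-fold higher. Pth1r, a parathyroid hormone receptor, read 35.1 and 76.1, 2.17-fold higher. These signals were low, and with that pseudocount their log2 ratios were 0.71 for Fshr and 0.57 for Pth1r. Pth1r also fell short of 2-fold after quantile normalization and lowess centring. The other 3 measured receptors lay within 2-fold, and Lhcgr was not analysed here. All 12 measured G protein and adenylyl cyclase genes lay within 2-fold, the highest being Gnaz, an inhibitory alpha subunit (24.9 and 40.4), and Adcy5, an adenylyl cyclase (83.8 and 133). The 2 measured probe sets of Adcy5 differed in sign, with log2 ratios of 0.66 and -0.14.

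Other phosphodiesterases of cyclic AMP also lay within 2-fold, 6 of 6 measured. Pde3b, which cyclic GMP inhibits, read 422 and 264 (1.60-fold lower). Pde8b, a separate gene of the same family as Pde8a, read 47.6 and 66.3 (1.39-fold higher). The 6 measured protein kinase A subunits and inhibitors were within 2-fold. The regulatory subunit Prkar2a read 719 and 529, and the catalytic subunit Prkacb 381 and 498. The 9 measured A-kinase anchoring proteins, which tether the kinase, ran from -0.49 for Akap2 (1188 and 844) to 0.41 for Akap1 (479 and 635). Of the 5 measured genes of Epac and Rap1, the branch that senses cyclic AMP without protein kinase A, Rap1gap read 37.1 and 64.9 and the small GTPase Rap1b 3612 and 2898. The 3 measured probe sets of Rap1b had log2 ratios from -0.49 to 0.10. All 9 measured CREB relatives, coactivators and SIK kinases were within 2-fold. The lowest was Sik1, a kinase that restrains the CREB coactivators and that cyclic AMP induces, at 154 and 80.2 (1.93-fold lower), which passed 2-fold under the 3 rescalings with log2 ratios of -1.004, -1.06 and -1.07. The highest was the coactivator Crtc2, at 46.2 and 67.1 (1.45-fold higher) on its brightest probe set. Its 2 measured probe sets had log2 ratios of 0.54 and -0.51, so no direction can be given for Crtc2.

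Genes known to be transcribed in answer to cyclic AMP had a lower median than this machinery, a difference that was not tested. Of 14 listed, 12 were measured, and all 12 had ratios below 0, with 6 at least 2-fold lower, 0 higher and a median of -0.99. Of all measured genes, 40.0% had ratios below 0, 1.56% were at least 2-fold lower and 3.34% higher. Sik1 was counted both here and in the machinery. Many of the 14 are also immediate early genes that answer other signals. Several were already known to be lower in these data, so the list is no independent support. The neurotrophin gene Bdnf read 104 with vehicle and 41.3 with ulipristal (2.51-fold lower), and its 2 measured probe sets had the same direction. Nfil3, a leucine zipper repressor, read 1059 and 365 (2.90-fold lower), and Gem, a small GTP-binding protein, 328 and 161 (2.04-fold lower). The others past 2-fold were Fos (1473 and 471), Nr4a2 (285 and 90.8) and Nr4a3 (215 and 93.1). The 4 measured probe sets of Nr4a2 had log2 ratios from -1.65 to -0.46. With the pseudocount, log2 ratios of Bdnf, Gem and Nr4a3 were -0.75, -0.84 and -0.89, short of 2-fold. Fosb and Ppargc1a were too dim to be measured.

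**Figure D3:**
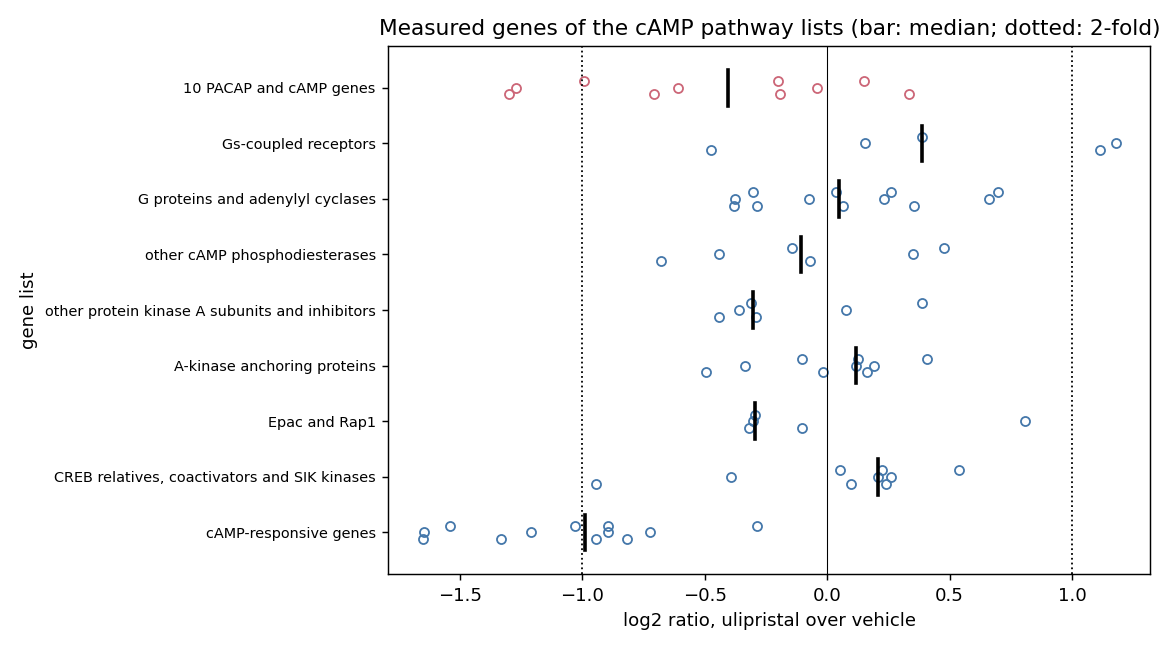
Log2 ratio of ulipristal over vehicle for each measured gene (circles) of the 10 PACAP and cyclic AMP genes and the other lists of the cascade, with each list's median as a bar and dotted lines at 2-fold. The median was -0.99 for cAMP-responsive genes and -0.41 for the 10 genes, and the other lists had medians from -0.30 to 0.39.

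Markers of the cell types in the samples were read beside these values. Summed signals here and below cover every gene of a list that had a single-gene probe set, including those too dim to be measured. Over all measured genes, 1.56% were lower by 2-fold or more and 3.34% higher by as much. Granulosa markers were present on both arrays. Of 10 measured, 4 were at least 2-fold higher and 0 lower, from Amh (48.7 and 30.1) to Inhbb (656 and 1781), and their summed signal was 14898 with vehicle and 18970 with ulipristal. All 4 cumulus expansion genes were below 0, 3 of them at least 2-fold, from Ptx3 (194 and 125) to Vcan (5886 and 1376), and their sum was 6461 and 1611. Oocyte markers lay within 2-fold in all 8 measured cases, from Oosp1 (263 and 216) to Nobox (52.4 and 79.9), with sums of 1492 and 1682. The signals of Adcyap1, Pde4b, Pde4d and Crem were thus lower on an array where granulosa markers summed higher and cumulus expansion genes lower. Each sum leans on its brightest gene. With vehicle, Vcan gave 5886 of 6461 and Inha 6933 of 14898. In whole ovaries these marker sums also cannot tell a difference in cell number from one in RNA per cell. Whether a difference in cell content had a part in these ratios was not tested.

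Markers of the remaining tissues and cell types mostly had ratios above 0, and 40.0% of all measured genes had ratios below 0. The leukocyte markers past 2-fold were lower. The share of all measured genes at least 2-fold higher was 3.34%, and 9.51% at a mean signal under 100. Of 6 measured oviduct markers 5 were at least 2-fold higher, from Ovgp1 (3641 and 5642) to Foxj1 (19.1 and 75.1), with sums of 3834 and 6163. Foxj1, Ccdc39 and the list's other members past 2-fold had low signals, and with the pseudocount 0 of 6 reached 2-fold. Adipose markers had 1 of 3 at least 2-fold higher, from Fabp4 (1602 and 2148) to Cidec (28.7 and 67.9), with sums of 1837 and 2589. Endothelial markers had 2 of 6 at least 2-fold higher, from Cdh5 (340 and 288) to Tie1 (24.8 and 76.8), with sums of 1250 and 1549. In this list Tie1 alone reached 2-fold under the 3 rescalings, and no gene did with the pseudocount. Cidec also fell short with the pseudocount, and granulosa and cumulus expansion markers then had 2 genes each past 2-fold. Smooth muscle markers were within 2-fold in 5 of 5 cases, from Tagln (4040 and 4095) to Cnn1 (371 and 635), with sums of 14037 and 15458. Theca and interstitial markers had 2 of 5 at least 2-fold higher and 1 lower, from Hhip (280 and 60.0) to Fabp3 (110 and 274), with sums of 2573 and 3673. Leukocyte markers had 2 of 8 at least 2-fold lower, the neutrophil genes S100a8 (202 and 73.5) and S100a9 (150 and 40.6), and Ptprc at the other end (61.1 and 114), with sums of 1248 and 1140. PACAP is also a neuropeptide, and 3 of 7 neuron and Schwann cell markers were measured, all within 2-fold. They ran from Rbfox3 (40.6 and 35.6) to Uchl1 (168 and 235). The sums over all 7, of which 4 were too dim, were 492 and 584.

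**Figure D4:**
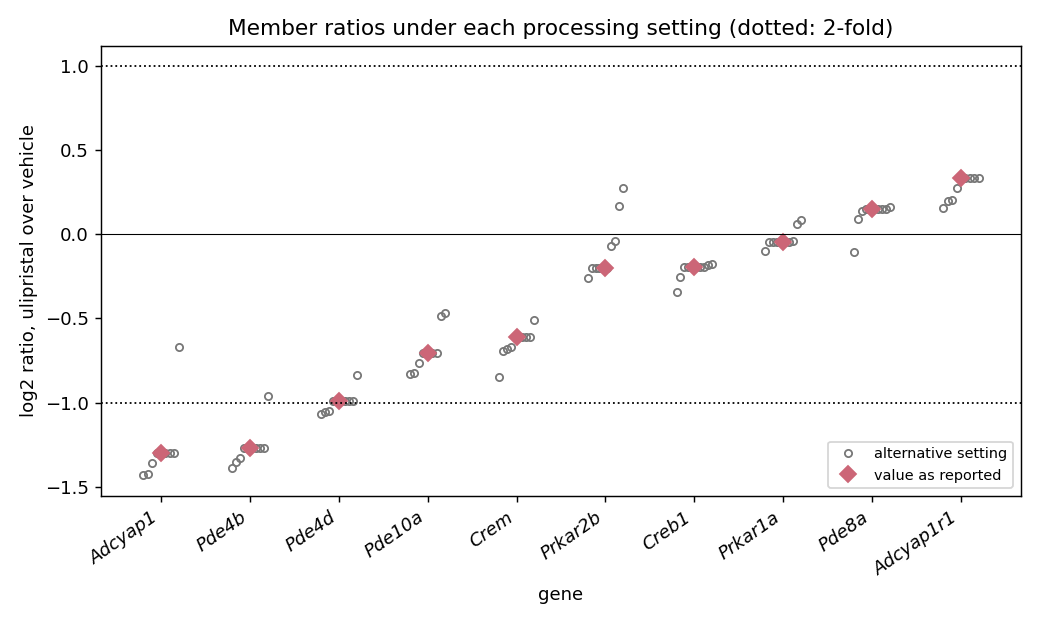
Log2 ratio of ulipristal over vehicle for each of the 10 genes as reported (diamonds) and under each alternative processing setting that gave a value (circles), with dotted lines at 2-fold. Adcyap1, Pde4b, Pde4d, Pde10a, Crem and Creb1 stay below 0 in all of them, whereas Pde8a, Prkar1a and Prkar2b cross 0.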

How the data were processed

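RNA from whole ovaries was measured on 2 Affymetrix mouse expression arrays, 1 per treatment, from 100 ng of total RNA, per the labels' protocols. The authors deposited 1 linear intensity per probe set. MAS5 and Affymetrix Expression Console version 1 are named in the submitters' processing notes. Global scaling is borne out by the equal mean after removing the lowest and highest 2% of values, which would hide a shift common to most genes. The number of arrays limits the precision. Groups came from the treatment labels.

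Probe sets were named from the platform annotation, and all 10 gene identifiers matched the RefSeq table. The floor was the 25th percentile of the signals of all but the 64 control probe sets. The genes and lists were chosen with earlier results of these data known. The text names all 10 genes, and from each other list the measured genes at 2-fold or more, or otherwise the 2 with the largest ratios. From marker lists it names the lowest and highest. The steps were tested on simulated arrays in which 200 genes were changed by 3-fold or more. Changes near 2-fold and greater noise at low signal were not simulated. A total of 12 alternatives were tried. The software was pandas 2.3.3 and numpy 2.4.6 under Python 3.11.15, with lowess from statsmodels 0.14.6 and plots from matplotlib 3.10.9.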

Additional observations from a re-analysis of the deposited data

How the results depend on the processing

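The arrays were rescaled by median centring, by quantiles or by lowess (fraction 0.3). The floor was dropped, raised to the 50th percentile or replaced by a pseudocount of 50, and the filter was dropped or raised to the 75th percentile. Genes were also read as the median over measured probe sets or without s and x probe sets, and the limit was set to 1.5-fold or 3-fold. Of the 97 ratios of the 10 genes under them, 87 kept their direction and their side of 2-fold, 2 fell short of 2-fold (Adcyap1 and Pde4b with the pseudocount), 3 passed it (Pde4d) and 5 changed sign. The sign changes were Pde8a (-0.10) and Prkar2b (0.17) with the median over probe sets, Prkar2b without s and x probe sets (0.28), and Prkar1a after quantile normalization (0.085) and lowess centring (0.059). The members at least 2-fold lower numbered 1 of the 7 left with the filter at the 75th percentile, which removes Adcyap1, 0 with the pseudocount, 5 at 1.5-fold and 0 at 3-fold. Over all genes, 4.58% were lower by 1.5-fold and 0.50% by 3-fold. At 2-fold, 1.43% of all genes were lower with the filter at the 75th percentile and 0.86% with the pseudocount. With the filter at the 75th percentile the median over measured members was -0.20. Genes past the limit in either direction, 557 as reported, numbered 1485 without a filter, 159 with the filter at the 75th percentile, 152 with the pseudocount, 1922 at 1.5-fold and 117 at 3-fold. Of those genes 68.2% were higher, against 57.3% after quantile normalization, 56.2% after lowess centring, 36.5% with the filter at the 75th percentile, 35.5% with the pseudocount and 51.3% at 3-fold. Medians of -0.11 for the other phosphodiesterases, -0.30 for the kinase subunits, 0.049 for G proteins and cyclases and 0.12 for anchoring proteins changed sign in 1, 1, 3 and 1 of 10 settings, and that of cAMP-responsive genes stayed between -1.10 and -0.80. No paired analysis was possible because each treatment has 1 array.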

Other observations

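The full CRE letters TGACGTCA stood in a RefSeq promoter window of 329 measured genes, and these were read as a description, chosen after the values of the 10 genes were seen. Of the 329 genes 7 (2.13%) were lower by 2-fold or more and 10 (3.04%) higher by as much, against 131 (1.48%) and 289 (3.26%) of the 8867 genes whose windows lacked them. The medians were 0.043 and 0.095 on the log2 scale. The lower genes were Has1, a hyaluronan synthase (213 with vehicle and 21.6 with ulipristal), Errfi1, an inhibitor of EGF receptor signalling (6713 and 1053), Hhip, a hedgehog-binding protein (280 and 60.0), the antiproliferative gene Btg2 (885 and 343), the small Maf protein gene Maff (225 and 88.9), the cholesterol hydroxylase gene Ch25h (121 and 55.3) and the heparan sulfate sulfotransferase gene Hs3st2 (46.7 and 22.7). The higher genes were Mlf2 (216 and 722), Dapk3 (48.8 and 147), Csf2ra (43.2 and 124), Kif5c (28.9 and 80.7), Spata7 (26.8 and 70.4), Cldn7 (25.3 and 65.7), Ptpru (19.7 and 50.5), Dnah6 (25.4 and 58.1), Lsm2 (65.6 and 143) and Mturn (84.3 and 169). For the shorter core TGACG the share at least 2-fold lower was 1.69% of 3305 genes with it and 1.39% of 5891 without. The share at least 2-fold higher was 2.27% with the core and 3.80% without. For the steroid receptor hexamer AGAACA the lower shares were 1.13% of 1322 genes with it and 1.56% of 7874 without. Its higher shares were 3.78% and 3.16%.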
